A study of Mus musculus with 2 samples.

Results

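The genes described here encode antioxidant and thiol redox proteins, measured in sorted lung epithelial cells of adult mice. They were chosen by gene symbol alone: glutathione peroxidases, peroxiredoxins, every symbol beginning with Txn, the superoxide dismutases, catalase, glutaredoxins, the enzymes that make and reduce glutathione, the quinone reductases, sulfiredoxin, methionine sulfoxide reductases, Keap1 and the Nfe2l factors. This gave 58 of 22072 gene symbols, of which 2 are listed pseudogenes. The symbols starting with Txn also bring in proteins that carry a thioredoxin fold without a known part in oxidant defence, such as the splicing proteins Txnl4a and Txnl4b.

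There were 2 RNA-seq libraries, each of RNA pooled from 4 mice. The library labelled Mst1/2-deleted came from mice that carried Scgb1a1-rtTA and tetOCre together with floxed kinase alleles (Mst1-flx/flx and Mst2-flx/flx), in which doxycycline was meant to switch on Cre through the Scgb1a1 promoter of club cells and so delete the Hippo kinase genes Mst1 and Mst2. The control library came from mice with tetOCre, Mst1-flx/flx and Mst2-flx/flx, which hold the same floxed alleles and Cre transgene but no activator. Both groups ate doxycycline food at 625 mg/kg for 16 days, so active Cre and the activator itself differ between the groups together with the intended deletion. Cells were sorted as Lin-/CD326+/CD24-intermediate, a gate meant to enrich for secretory airway cells without cilia. Markers of alveolar type 2 cells were also high in both libraries, with Sftpc the highest of all gene symbols by FPKM. The levels below are therefore not those of airway secretory cells alone. With 1 library per genotype there is no replicate error, no p-value is given, and the intervals below are 95% intervals for counting error only.

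Cells that meet oxygen and inhaled oxidants remove superoxide with superoxide dismutases, and the hydrogen peroxide formed is removed by catalase, glutathione peroxidases and peroxiredoxins. The oxidised enzymes are returned to their reduced state by glutathione or thioredoxin, which in turn draw on NADPH through glutathione reductase and thioredoxin reductases. Many of these genes are under the transcription factor Nrf2 (gene symbol Nfe2l2), which the adaptor Keap1 holds at a low level until its cysteines react with oxidants or electrophiles. In the lung, peroxiredoxin 6 is abundant in alveolar type 2 and club cells, where it also acts as a phospholipase on surfactant lipids.

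The chemistry of several of these enzymes is written in their coding sequence as a TGA codon that is read as selenocysteine instead of stop. GENCODE (release M21, GRCm38) annotates such a codon in 7 of the 58 genes. The stretches below run 5′ to 3′ along the mRNA of the longest annotated coding transcript, with the selenocysteine codon in capitals. They show that the codon lies inside the coding sequence of the peroxidases and directly before the last sense codon of the reductases.
Gpx1 (chr9:108339436-108339468, + strand): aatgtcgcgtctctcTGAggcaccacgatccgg
Gpx2 (chr12:76795241-76795273, - strand): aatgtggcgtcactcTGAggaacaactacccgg
Gpx3 (chr11:54907241-54907273, + strand): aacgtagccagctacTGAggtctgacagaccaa
Gpx4 (chr10:80054722-80054754, + strand): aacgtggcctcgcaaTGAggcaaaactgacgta
Txnrd1 (chr10:82896022-82896045, + strand): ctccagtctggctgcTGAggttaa
Txnrd2 (chr16:18477757-18477780, + strand): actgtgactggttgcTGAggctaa
Txnrd3 (chr6:89674774-89674797, + strand): actcagaaaggctgcTGAggctag
The codon is number 47 of 201 in Gpx1 and number 40 of 190 in Gpx2, but number 612 of 613 in Txnrd1 and number 614 of 615 in Txnrd3. Each of the 7 printed stretches has G directly after the TGA. These selenoprotein genes did not share a direction in the data described below: of the 6 with a mean FPKM of at least 1, 4 had an FPKM ratio above 1 and 2 below, from 0.867 for Txnrd1 to 1.81 for Gpx3.

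Levels are given as FPKM (fragments scaled by transcript length and by mapped fragments), summed over the rows of a gene symbol. Differences are on the log2(FPKM + 1) scale, library labelled Mst1/2-deleted minus control library, which understates the change of low genes. The listed transcripts drew about 8340000 reads in the library labelled Mst1/2-deleted and 8770000 in the control library. The targeted genes do not settle the label: Stk4 (Mst1) had FPKM of 4.71 in the library labelled Mst1/2-deleted and 5.38 in the control library, and Stk3 (Mst2) 7.09 and 7.28 in the same order, over whole transcripts that may keep exons which Cre does not remove. Of the cell type markers, the 9 alveolar type 2 genes summed to FPKM of 14138 in the library labelled Mst1/2-deleted and 11300 in the control library, with 9 of 9 above 0 in difference. Of these, Sftpc ranked 1 among all gene symbols by FPKM in both libraries (10270 and 7888 in that order). The 9 alveolar type 1 genes summed to 297 and 114 in that order, with 7 at least 1.5-fold higher. The 6 club genes summed to 9486 and 11087 and were not of 1 direction: Cyp2f2 had 5305 and 4694 in that order, whereas Cbr2 (3803 and 5224), Scgb3a2 (256 and 691) and Scgb3a1 (121 and 477) were lower. Scgb1a1 was listed at 0 in both libraries with status HIDATA, by which Cufflinks marks loci with too many reads, so the club sums leave it out. Mucous (10.1 and 31.4), basal (9.26 and 24.9), leukocyte (5.04 and 12.3), alveolar macrophage (6.06 and 35.8) and mesenchymal markers (7.54 and 18.7) had lower sums in the library labelled Mst1/2-deleted than in the control library, as did endothelial ones (6.15 and 10.3), and ciliated markers a higher sum (51.4 and 31.2). Within the leukocyte list Csf1r went the other way (1.80 and 0.984 in that order). The mucous marker Tff2 was listed at 0 in the library labelled Mst1/2-deleted, and erythroid markers stayed under FPKM of 1 in both. In pools of sorted cells, fewer cells of a type and less RNA per cell cannot be told apart.

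Taken over all 58 genes, the levels of the redox genes were close in both libraries, and few stood apart. Of the 58, 48 had a mean FPKM of at least 1 over the 2 libraries, 6 lay below that with some reads, and 4 were listed at 0 in both. On the log2(FPKM + 1) scale 2 of the 48, Prdx6 and Gpx3, were at least 1.5-fold higher in the library labelled Mst1/2-deleted, which is 4.17%, beside 2.78% of all 9567 genes under the same filter. In the other direction 1 of the 48, Nfe2l3, was at least 1.5-fold lower, which is 2.08%, beside 2.20% of all genes. Both shares are near those of all genes. The higher count went to 1 when the median of all genes was set to 0 or the trend with transcript length was removed, since Prdx6 then lay just under 1.5-fold, and it also went to 1 when rows without status OK were left out, which removes Gpx3. The median log2 difference of the 48 was 0.02, beside 0.07 for all genes. Of the 48, 26 (54.2%) lay above 0 and 22 below, beside 63.7% of all genes above 0, and with the median of all genes set to 0 the split was 19 above and 29 below. The 48 had shorter transcripts than all genes (median 1826.5 beside 2754 bases), and the difference rose with length (Spearman rho 0.171 over all genes). Among the 4670 genes with transcripts no longer than the upper quartile of the 48, 56.1% lay above 0, with a median of 0.04. The sign turned under at least 1 scaling for 7 genes, all near 0: Glrx2, Glrx5, Gpx1, Gsr, Prdx3, Sod1 and Txndc9. In FPKM ratio, 21 of the 48 (43.8%) were within 1.1-fold, beside 36.6% of all genes.

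**Figure D1:**
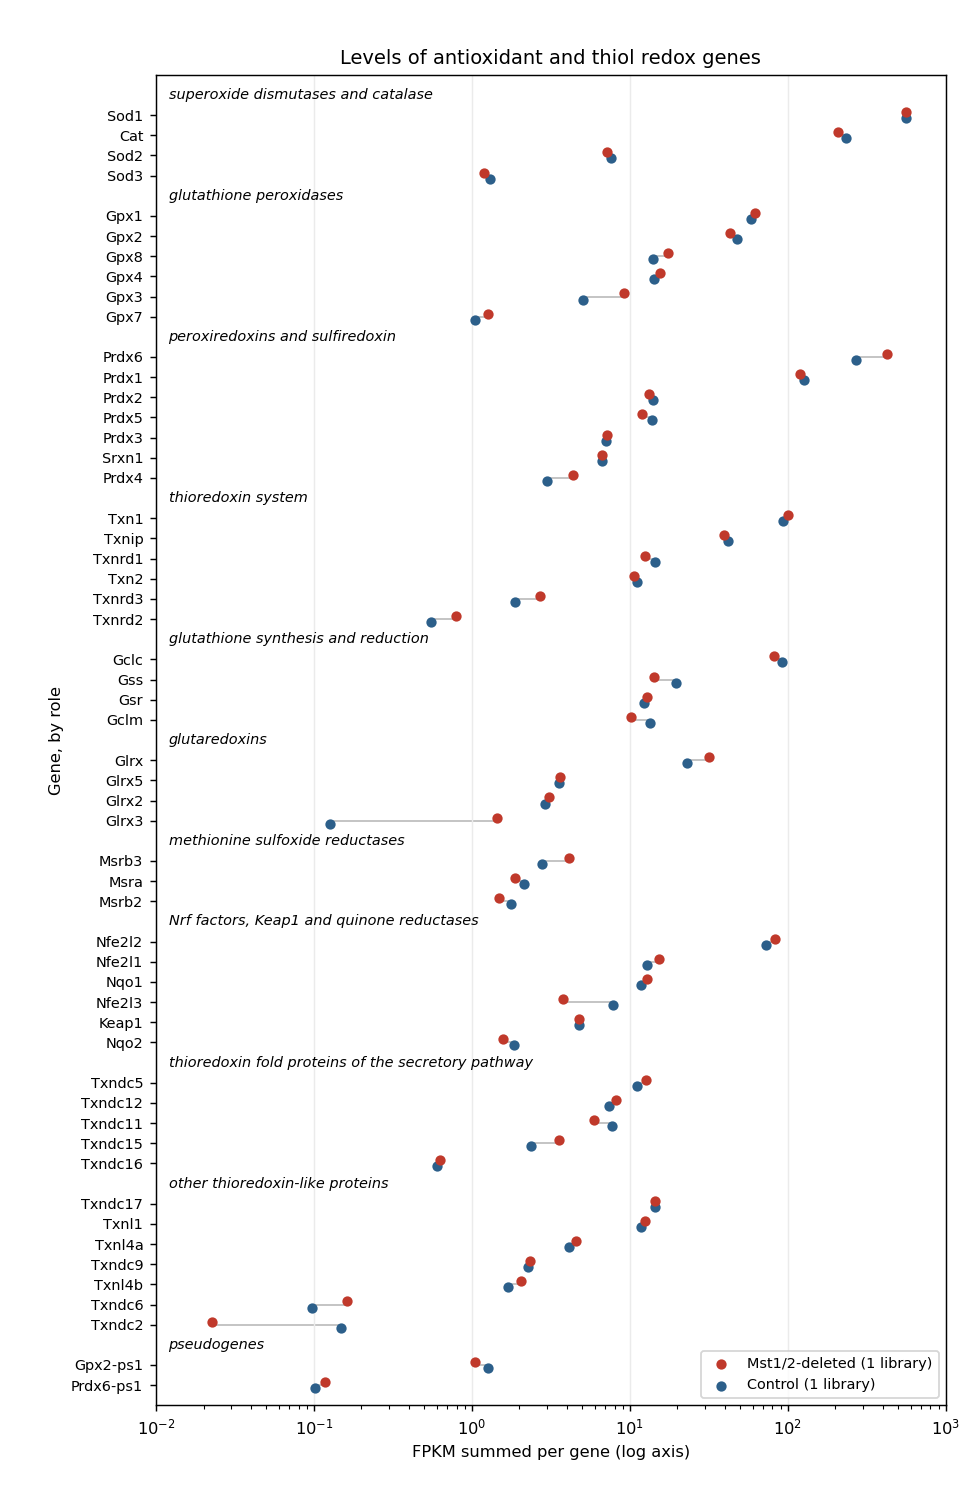
FPKM per gene on a log axis in the library labelled Mst1/2-deleted (red) and the control library (blue), by role, for the 54 genes with reads in both libraries; each point is 1 library, so there are no error bars. Sod1, Prdx6, Cat and Prdx1 are the 4 genes with a mean FPKM of at least 100. Among genes with a mean FPKM of at least 1, the pairs of points lie farthest apart for Nfe2l3, Gpx3 and Prdx6. Txndc15, Msrb3, Prdx4 and Txnrd3 come close behind, and a few genes with FPKM under 1.5 also lie far apart.

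The summed FPKM of the 58 genes was 2035 in the library labelled Mst1/2-deleted and 1896 in the control library. Without Prdx6 the sums were 1609 and 1626, so that the sign of the difference turned. The levels were unevenly spread: 4 genes had a mean FPKM of at least 100, 11 of at least 20, 21 from 5 to 20, and 16 from 1 to 5. Sod1 alone made up 27.5% of the sum in the library labelled Mst1/2-deleted and 29.4% in the control library.

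Superoxide dismutases and catalase, which remove superoxide and hydrogen peroxide without thiols, differed little. Sod1, the cytosolic copper and zinc enzyme (chr16:90220987-90226569, mm9), had FPKM of 559 in the library labelled Mst1/2-deleted and 558 in the control library, a ratio of 1.002 (interval 0.974 to 1.03). It ranked 21 and 24 among all gene symbols by FPKM in those libraries. Cat, the peroxisomal catalase (chr2:103294061-103325310), had FPKM of 209 in the library labelled Mst1/2-deleted and 233 in the control library, 1.11-fold lower (1.09 to 1.14). The mitochondrial manganese enzyme Sod2 was far lower in level, with FPKM of 7.12 in the library labelled Mst1/2-deleted and 7.62 in the control library. Extracellular Sod3 had 1.20 and 1.31 in that order, with a wide interval of its ratio from 0.638 to 1.31. None of the 4 reached 1.5-fold. A near-identical copy of Sod1, a pseudogene matching over 465 bases at 95% identity or more, is in the GENCODE annotation, so reads could be shared with it.

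The peroxiredoxins reduce peroxides with a cysteine of their own. Prdx6, the form with 1 catalytic cysteine that is reduced through glutathione (chr1:163170243-163181297), carried most of their difference. Its FPKM was 426 in the library labelled Mst1/2-deleted and 271 in the control library, 1.57-fold higher (1.54 to 1.60), from about 24080 and 17106 reads. It ranked 28 in the library labelled Mst1/2-deleted and 44 in the control library, and made up 73.2% of the summed FPKM of the 6 peroxiredoxins in the library labelled Mst1/2-deleted, against 62.2% in the control library. The sum of the other 5 was 156 in the library labelled Mst1/2-deleted and 164 in the control library. Markers of alveolar type 2 cells, which hold abundant Prdx6, summed higher in the same library, as given above, and those of type 1 cells had a ratio of sums of 2.60. Markers of club cells, which also hold abundant Prdx6, summed lower (9486 and 11087 in the control library), with Cyp2f2 higher. The part of these markers in the difference of Prdx6 was not tested.

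Prdx1, an abundant cytosolic peroxiredoxin, had FPKM of 119 in the library labelled Mst1/2-deleted and 127 in the control library, a ratio of 0.941 (0.902 to 0.981). Prdx2, its close cytosolic relative, had 13.3 and 14.0 in the same order, and mitochondrial Prdx3 7.22 and 7.03. These values differ by less than 1.1-fold. Prdx5, found in mitochondria, peroxisomes and cytosol, had FPKM of 11.9 in the library labelled Mst1/2-deleted and 13.8 in the control library, and its interval (0.716 to 1.05) includes 1. Prdx4, the peroxiredoxin of the endoplasmic reticulum (chrX:151758463-151772997), had 4.37 in the library labelled Mst1/2-deleted and 2.997 in the control library, 1.46-fold higher (1.08 to 1.98), on about 103 and 79.1 reads. Srxn1, which encodes sulfiredoxin and rescues overoxidised peroxiredoxins, had FPKM of 6.68 in the library labelled Mst1/2-deleted and 6.71 in the control library. Prdx1 has 2 pseudogene copies and Prdx2 has 1 that match at 95% identity or more over up to 597 bases, and their levels may hold shared reads.

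Glutathione peroxidases use glutathione to reduce peroxides. Gpx1, the cytosolic form (chr9:108241411-108242673), had FPKM of 61.7 in the library labelled Mst1/2-deleted and 58.8 in the control library, a ratio of 1.05 (0.979 to 1.13). Gpx2, an epithelial form first described in the gut (chr12:77893322-77896541), had 42.9 in the library labelled Mst1/2-deleted and 47.9 in the control library, 1.12-fold lower (1.03 to 1.21). Together these selenoproteins made up most of the peroxidase sum in each library: Gpx1 gave 41.7% in both, and Gpx2 29.0% in the library labelled Mst1/2-deleted and 34.0% in the control library. Gpx4, which reduces lipid hydroperoxides in membranes, had FPKM of 15.5 in the library labelled Mst1/2-deleted and 14.3 in the control library (ratio 1.09).

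The other measured peroxidases belong to the secretory pathway. Gpx3, the secreted plasma form (chr11:54716355-54723889), had FPKM of 9.13 in the library labelled Mst1/2-deleted and 5.04 in the control library, 1.81-fold higher (1.51 to 2.17). All of its FPKM lay on a row with status LOWDATA in both libraries, by which Cufflinks marks loci with too few reads or too complex a structure, although about 321 and 198 reads were placed there. Gpx8, a membrane protein of the endoplasmic reticulum with cysteine in place of selenocysteine (chr13:113832971-113836596), had FPKM of 17.4 in the library labelled Mst1/2-deleted and 13.96 in the control library, a ratio of 1.24 (1.08 to 1.43). Its relative Gpx7 had 1.27 and 1.05 in that order, on about 37.2 and 34.4 reads. Gpx5, known from the epididymis, and Gpx6, known from olfactory tissue, were listed at 0 in both libraries.

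Genes of glutathione synthesis were lower together, at modest size, while the reductase was not. Glutathione is made in a pair of steps, by glutamate-cysteine ligase and then glutathione synthetase. Gclc, the catalytic subunit of the ligase (chr9:77602342-77642296), had FPKM of 81.4 in the library labelled Mst1/2-deleted and 92.2 in the control library, a ratio of 0.883 (0.855 to 0.912). Gclm, its modifier subunit (chr3:121948510-121969566), had 10.2 in the library labelled Mst1/2-deleted and 13.4 in the control library, 1.31-fold lower (1.15 to 1.51). Gss, the synthetase (chr2:155388919-155418442), had 14.3 in the library labelled Mst1/2-deleted and 19.7 in the control library, a ratio of 0.724 (0.655 to 0.801). All 3 stayed lower after conversion to TPM, with the median of all genes set to 0 and with the length trend removed. None reached 1.5-fold. Gsr, which returns oxidised glutathione to its reduced form, had FPKM of 12.9 in the library labelled Mst1/2-deleted and 12.4 in the control library, a log2 difference of 0.06 that went just below 0 with the median of all genes set to 0 or the length trend removed.

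**Figure D2:**
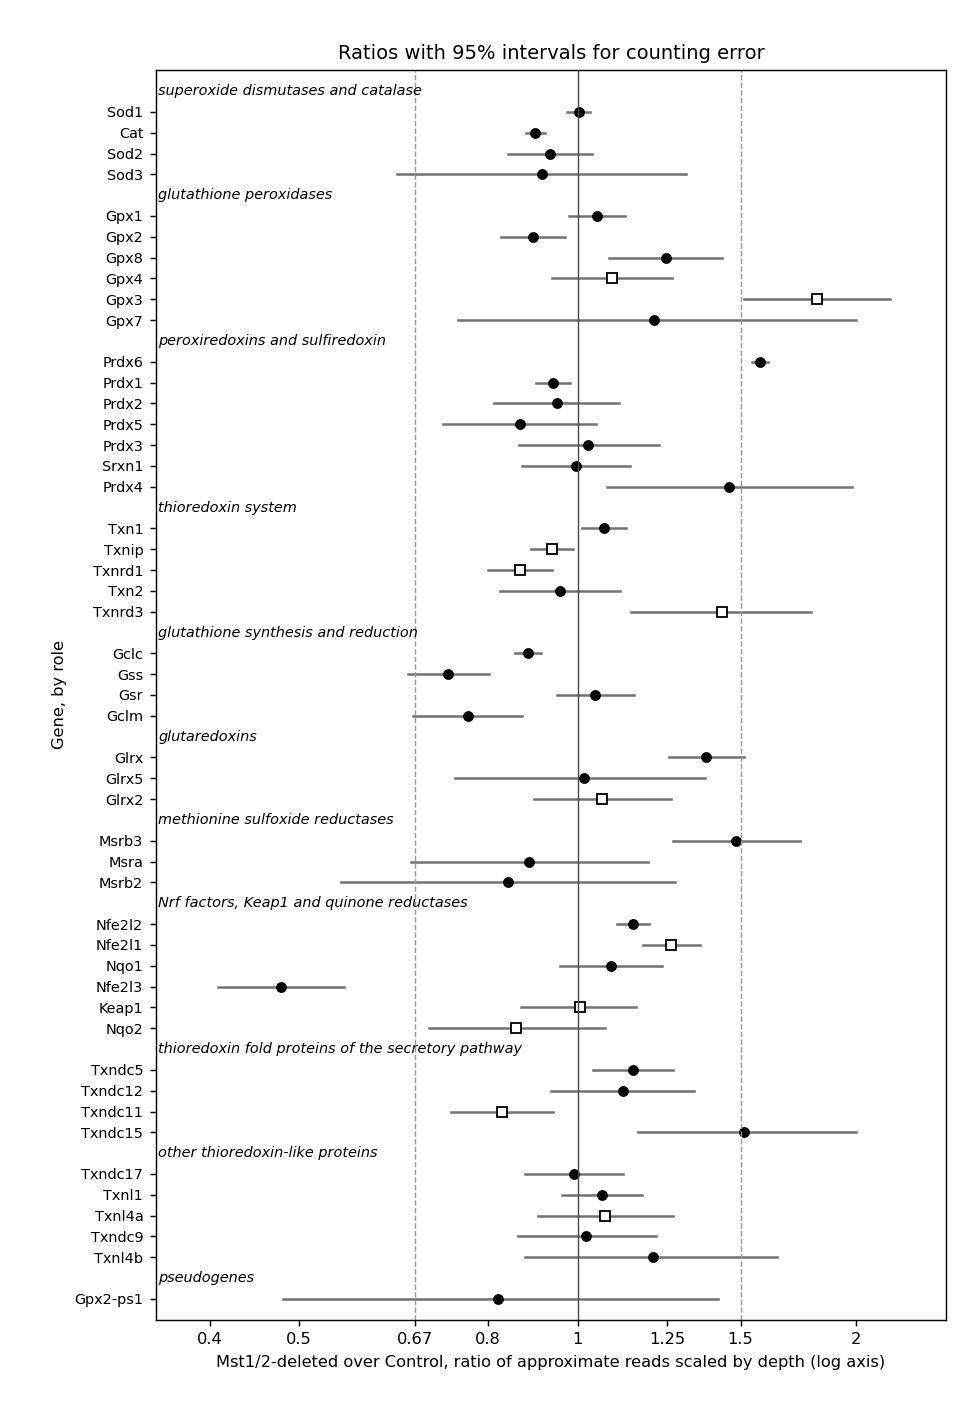
Ratio of depth-scaled approximate reads, library labelled Mst1/2-deleted over control library, on a log axis with its exact 95% interval for counting error, for the 48 genes with a mean FPKM of at least 1; open squares are genes with more than 1 transcript row, and dashed lines mark 1.5-fold. The interval lies wholly above 1 for 12 genes, wholly below 1 for 10 and includes 1 for 26. These counts depend on the number of reads, with Txn1 clearing 1 at a ratio of 1.07, and the share over all genes was not computed. Only Nfe2l3 lies with its whole interval left of the lower dashed line, whereas those of Prdx6 and Gpx3 lie right of the upper.

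The thioredoxin system hands electrons from NADPH to peroxiredoxins and other targets. Txn1, cytosolic thioredoxin (chr4:57956245-57969283), had FPKM of 99.9 in the library labelled Mst1/2-deleted and 93.7 in the control library, a ratio of 1.07 (1.01 to 1.13). Mitochondrial Txn2 had 10.5 and 11.0 in that order. Txnip, which binds and inhibits thioredoxin (chr3:96361880-96365780), had FPKM of 39.4 in the library labelled Mst1/2-deleted and 42.0 in the control library (ratio 0.939, 0.891 to 0.988). These 3 were within 1.1-fold.

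The thioredoxin reductases differed among themselves. Txnrd1, the cytosolic reductase (chr10:82296696-82360469), had FPKM of 12.4 in the library labelled Mst1/2-deleted and 14.3 in the control library, a ratio of 0.867 (0.799 to 0.939). Most of it lay on the transcript of 3634 bases, which had 8.11 in the library labelled Mst1/2-deleted and 10.6 in the control library. A transcript of 3505 bases had 2.34 and 0.665 in that order, whereas a transcript of 3417 bases had 1.98 and 3.10. The split among these transcripts rests on few reads that tell them apart. Txnrd3, a reductase that carries a glutaredoxin domain (chr6:89593982-89625523), had FPKM of 2.68 in the library labelled Mst1/2-deleted and 1.87 in the control library, 1.43-fold higher (1.14 to 1.79). Mitochondrial Txnrd2 stayed under a mean of 1, with 0.788 and 0.547 in that order.

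Glutaredoxins reduce mixed disulfides with glutathione or carry iron-sulfur clusters. Glrx, the cytosolic enzyme (chr13:75977334-75987599), had FPKM of 31.9 in the library labelled Mst1/2-deleted and 23.1 in the control library, 1.38-fold higher (1.26 to 1.51). The mitochondrial forms did not follow it: Glrx2 had 3.08 and 2.90 in the same order, and Glrx5, of iron-sulfur cluster assembly, 3.61 and 3.56. Both log2 differences, 0.07 and 0.02, turned below 0 with the median of all genes set to 0. Glrx3, a monothiol glutaredoxin of iron handling, had an FPKM of 1.43 in the library labelled Mst1/2-deleted and 0.126 in the control library, a ratio of 11.4 (4.59 to 30.1) on about 57.3 and 5.63 reads. Its mean was under 1, and a pseudogene copy matches it at 95% identity or more over 964 bases, so its estimate is uncertain.

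Methionine sulfoxide reductases repair oxidised methionine, and were low. Msrb3, a form of the endoplasmic reticulum (chr10:120218157-120336027), had FPKM of 4.14 in the library labelled Mst1/2-deleted and 2.79 in the control library, 1.48-fold higher (1.27 to 1.74). Msra had 1.88 in the library labelled Mst1/2-deleted and 2.12 in the control library, and mitochondrial Msrb2 1.48 and 1.76 in that order. The intervals of both, from 0.660 to 1.19 and from 0.554 to 1.28, include 1.

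Among the regulators, the level of Nrf2 itself was high and that of its relative Nfe2l3 differed most. Nfe2l2, which encodes Nrf2 (chr2:75513576-75542698), had FPKM of 83.4 in the library labelled Mst1/2-deleted and 72.7 in the control library, a ratio of 1.15 (1.10 to 1.19). Keap1, which targets Nrf2 for degradation, had 4.75 and 4.79 in that order. Nrf2 is regulated largely through its protein, which was not measured. Nfe2l3, a related factor with a cap'n'collar domain (chr6:51382669-51408767), had FPKM of 3.76 in the library labelled Mst1/2-deleted and 7.87 in the control library, 2.09-fold lower (1.79 to 2.45), on about 232 and 542 reads. It was the redox gene with the largest lower FPKM ratio among the 48. On the log2(FPKM + 1) scale its difference was -0.90.

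Nfe2l1, the third factor of the family, which raises proteasome genes when the proteasome is impaired (chr11:96678728-96691282), had FPKM of 15.4 in the library labelled Mst1/2-deleted and 12.9 in the control library, a ratio of 1.19. From summed reads, which do not depend on how they were shared among its 6 transcript rows, the ratio was 1.26 (1.18 to 1.35). The share of its FPKM on the row of 4596 bases was 58.9% in the library labelled Mst1/2-deleted and 33.9% in the control library, while that of a row of 3547 bases was 13.4% and 29.0% in that order. Such shares rest on few reads that tell the transcripts apart. The quinone reductase Nqo1, widely used as a readout of Nrf2, had FPKM of 12.8 in the library labelled Mst1/2-deleted and 11.8 in the control library (ratio 1.09, 0.956 to 1.23). Nqo2 had 1.57 and 1.85 in the same order, and another gene matches it over 764 bases at 95% identity or more.

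Nrf2 binds the antioxidant response element, of which TGACNNNGC is the core. The promoter table (RefSeq, GRCm38.p6, 250 bases before to 50 after each start site) held 49 of the 58 genes, and the core was searched on both strands, so that GCNNNGTCA marks it on the other strand. It was found for 11 of the 49 (22.4%), beside 14.0% of all 27025 symbols in the table. The stretches below, in the direction of the gene with the core in capitals, are from the textbook targets Gclm, Prdx1 and Txnrd1 and from Nfe2l2 itself.
Gclm (chr3:122245411-122245443, + strand): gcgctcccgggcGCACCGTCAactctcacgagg
Prdx1 (chr4:116685454-116685486, + strand): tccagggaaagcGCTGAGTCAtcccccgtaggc
Txnrd1 (chr10:82859102-82859134, + strand): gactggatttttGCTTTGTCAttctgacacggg
Nfe2l2 (chr2:75704883-75704913, - strand): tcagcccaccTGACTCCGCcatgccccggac
A gene was counted where any of its entries held the core. Of the 3 entries of Txnrd1 only the middle one does; the one farthest upstream does not, and the transcript of 3634 bases, which carries most of the Txnrd1 level, is the one that starts farthest upstream in the deposited tables. Of the genes with the core, 9 had a mean FPKM of at least 1, and their FPKM ratios ran from 0.761 (Gclm) to 1.15 (Nfe2l2) with a median of 0.941. The 31 measured genes whose table entries lack it ran from 0.478 to 1.81 with a median of 1.05. Those 31 include Nqo1 (ratio 1.09), named above as a readout of Nrf2, and Gclc has no entry in the promoter table. The 2 medians therefore do not set Nrf2 targets against other genes. The match describes letters in a short window and is not a measured binding site.

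The 4 measured Txndc genes of the secretory pathway did not share a direction, with 3 above 0 and 1 below. Txndc5, a disulfide isomerase, had FPKM of 12.7 in the library labelled Mst1/2-deleted and 11.1 in the control library (ratio 1.15, 1.04 to 1.27). Txndc12, a small oxidoreductase of the same compartment, had 8.21 and 7.33 in that order, and the interval of its ratio (0.935 to 1.34) includes 1. Txndc15, a membrane protein linked to cilia (chr13:55816011-55827588), had FPKM of 3.57 in the library labelled Mst1/2-deleted and 2.35 in the control library, a ratio of 1.51 (1.16 to 2.00), which on the log2(FPKM + 1) scale is 0.44 and under 1.5-fold. Ciliated cell markers summed to FPKM of 51.4 in the library labelled Mst1/2-deleted and 31.2 in the control library, and their part in it was not tested. Txndc11, which binds the Duox oxidases during their maturation (chr16:11075004-11134625), went the other way, with 5.96 in the library labelled Mst1/2-deleted and 7.75 in the control library, a ratio of 0.769. Without a short row of 1220 bases with status LOWDATA, which had 0.939 in the control library, its values were 5.96 and 6.81 in that order. Txndc16 had 0.631 and 0.599.

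By known compartment, a grouping made after the values were seen, 13 of the 58 act in the endoplasmic reticulum or outside the cell. Of the 10 with a mean FPKM of at least 1, 8 (80%) lay above 0, beside 63.7% of all genes. The 2 below 0 were Sod3 and Txndc11, and the median log2 difference of the 10 was 0.24. The 29 measured cytosolic or nuclear ones had a median of 0.00 and the 7 mitochondrial ones -0.06, beside 0.07 for all genes. A further list from the endoplasmic reticulum, the 18 measured genes of oxidative folding given below, went the other way. Of these 7 lay above 0 and 11 below, with a median of -0.06.

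The remaining thioredoxin-like genes were near parity. Txndc17, a cytosolic disulfide reductase, had FPKM of 14.4 in the library labelled Mst1/2-deleted and 14.5 in the control library. Txnl1, a thioredoxin bound to the proteasome, had 12.5 and 11.7 in that order. The splicing proteins Txnl4a (4.53 and 4.13) and Txnl4b (2.03 and 1.69) and the chaperonin partner Txndc9 (2.32 and 2.27) also lay within 1.3-fold. Genes known from testis or cilia were near the floor: Txndc2 had 0.0225 in the library labelled Mst1/2-deleted and 0.149 in the control library, Txndc6 0.163 and 0.0969 in that order, and Txndc3 and Txndc8 were listed at 0 in both. The genes listed under pseudogene symbols, Gpx2-ps1 (1.04 and 1.27) and Prdx6-ps1 (0.117 and 0.101), were low beside Gpx2 and Prdx6. In the RefSeq table used here Prdx6-ps1 carries the symbol Prdx6b.

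**Figure D3:**
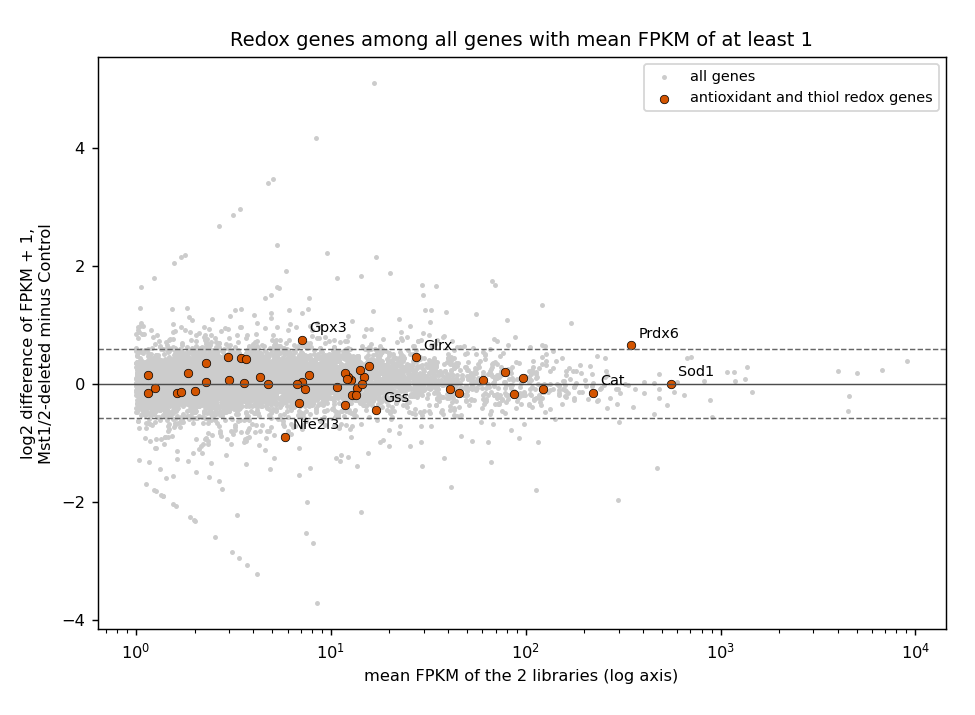
Log2 difference of FPKM + 1 (library labelled Mst1/2-deleted minus control library) against mean FPKM on a log axis, for all 9567 genes with a mean FPKM of at least 1 (grey) and the 48 redox genes among them (orange); dashed lines mark 1.5-fold. The redox genes spread through the grey band, with Prdx6 and Gpx3 above the upper line and Nfe2l3 below the lower.

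Genes that work with these enzymes were examined as 6 further lists; counts of 1.5-fold are again on the log2(FPKM + 1) scale. Among 26 other Nrf2 targets, 20 lay below 0 and 6 (23.1%) above, beside 63.7% of all genes above 0. Their median log2 difference was -0.19, beside 0.07 for all genes and 0.02 for the redox genes. After each of the scalings tried 22 or 23 of the 26 lay below 0, and without Slc7a11 the median was -0.15. Of the 26, 3 were at least 1.5-fold lower, beside 2.20% of all genes, and 0 were as much higher, beside 2.78%. Slc7a11, the cystine carrier that feeds glutathione synthesis, had FPKM of 0.771 in the library labelled Mst1/2-deleted and 4.57 in the control library, a ratio of 0.169 (0.143 to 0.198). Gsta1, a glutathione transferase, had 4.22 in the library labelled Mst1/2-deleted and 7.09 in the control library, and Aox1, an aldehyde oxidase, 8.40 and 14.1 in that order. The abundant transferase Gstm1 (730 and 1080) and the pentose phosphate enzyme Taldo1 (6.85 and 9.998) were also lower without reaching 1.5-fold. Hmox1, heme oxygenase 1, had the largest higher ratio, with 46.1 in the library labelled Mst1/2-deleted and 33.7 in the control library, 1.37-fold (1.28 to 1.47). Alveolar macrophage markers, of which Chi3l3 had 4.51 and 23.97, were lower in the same library, as were mucous markers and 3 of the 4 measured club markers, Cyp2f2 being the exception. The lineage gate (Lin-) of the sort is meant to remove leukocytes, macrophages among them. The part of these markers in the differences was not tested.

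The 14 regulators of Nrf2 and redox sensors lay within 1.3-fold, with 8 above 0 and 6 below. Rbx1, of the ligase that Keap1 serves, had FPKM of 5.62 in the library labelled Mst1/2-deleted and 4.51 in the control library, and Sesn2, a stress sensor, 4.43 and 5.24 in that order. Of 11 measured genes of glutathione turnover and cysteine supply, 1 was at least 1.5-fold lower, beside 2.20% of all genes: Ggct, which cleaves gamma-glutamyl amino acids, at 0.965 in the library labelled Mst1/2-deleted and 2.20 in the control library. Of 12 measured genes of selenoprotein synthesis and other selenoproteins, 0 reached 1.5-fold, beside the same 2.78% higher and 2.20% lower of all genes. Eefsec, the elongation factor for selenocysteine, had 1.55 and 0.915 in that order, and Pstk, the kinase that starts selenocysteine synthesis on its tRNA, 1.24 and 2.01. Sepp1, secreted selenoprotein P, had the highest level of that list, with FPKM of 151 in the library labelled Mst1/2-deleted and 125 in the control library (ratio 1.21).

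Among 18 measured genes of oxidative folding in the endoplasmic reticulum, 0 were 1.5-fold higher and 2 as much lower, beside 2.78% and 2.20% of all genes; the list's median was -0.06, with 7 above 0 and 11 below. The lower ones were Agr2, an isomerase of mucous cells (0.535 in the library labelled Mst1/2-deleted and 2.73 in the control library), and Pdia5 (0.557 and 1.97 in that order). The abundant isomerases Pdia3 (73.8 and 82.2) and P4hb (53.2 and 57.7) were within 1.3-fold. Of 15 oxidant producing enzymes, 4 had a mean FPKM of at least 1. All 4 lay below 0, beside 3474 of all 9567 genes, and the interval of Cyba (0.666 to 1.31) includes 1. Of the 4, 1 was at least 1.5-fold lower, beside 2.20% of all genes. This was Cybb, the oxidase subunit of phagocytes, with 0.705 in the library labelled Mst1/2-deleted and 2.20 in the control library (3.12-fold, 2.43 to 4.05). Ncf1, a further part of that oxidase, had 3.32 and 4.59 in that order. Leukocyte markers had a ratio of sums of 0.409 and alveolar macrophage markers of 0.169 between the same libraries. Of the 4 leukocyte markers with a mean FPKM of at least 1, 3 lay below 0, whereas Csf1r was higher (1.80 and 0.984, ratio 1.83). The part of these markers in the differences was not tested. The airway oxidases Duox1 and Duox2 were under FPKM of 0.1 in both libraries.

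**Figure D4:**
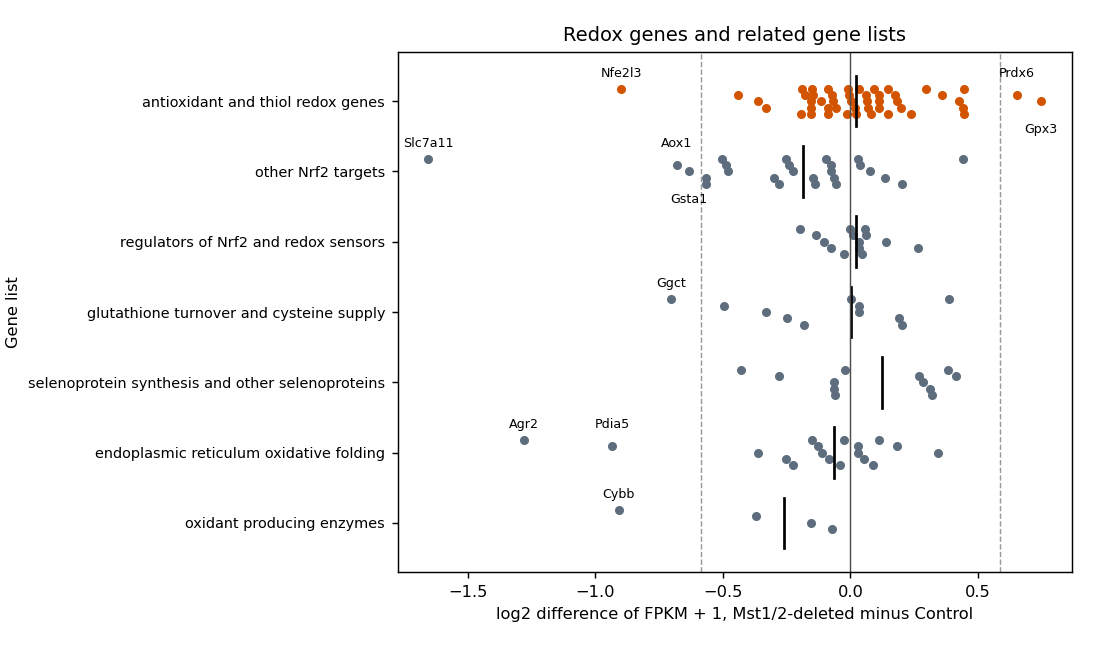
Log2 difference of FPKM + 1 (library labelled Mst1/2-deleted minus control library) of each gene with a mean FPKM of at least 1, for the redox genes (orange) and 6 related lists (grey); black bars are medians, dashed lines mark 1.5-fold and genes past them are named. The other Nrf2 targets sit mostly left of 0, with Slc7a11 farthest left, and the redox genes sit on both sides with a median of 0.02.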

How the data were processed

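Sorted cells were profiled by RNA-seq with Nextera XT libraries, per the labels. The submitters' processing notes name TopHat, Cufflinks and mm9. Versions, read length and strandedness were not given in the sources used here. Each of 28107 transcript rows carries the authors' FPKM, their coverage (a signal of mean read depth along the transcript), a length and a status, per the file headers.

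FPKM was summed per gene symbol, a pseudocount of 1 was added, and genes with a mean FPKM of at least 1 over the 2 libraries were counted at 1.5-fold. Approximate reads came from coverage times length, with 1 read taken as 47.1 bases, the median of single-transcript values between 25 and 75 bases. This size is an assumption. The values did not come out as whole reads (for genes with 1 row and about 1 to 10 reads, 23.2% in the library labelled Mst1/2-deleted and 23.7% in the control library lay within 0.1 of a whole read), so no count test was run. Exact (Clopper-Pearson) intervals of the ratio of summed reads, scaled by the depth ratio of 0.895, cover counting error only. The depth ratio is that of the FPKM denominators, from the median of coverage over FPKM in each library. The denominators stood for 1141 and 1275 Mb, library labelled Mst1/2-deleted first, beside 393 and 413 Mb on the listed transcripts, which lie closer together. Intervals scaled by the latter were not computed. The intervals were also run on simulated whole reads drawn under the same counting model. That run checks the calculation only, because the deposited values did not come out as whole reads. For the 13 genes with more than 1 row, the ratio of summed reads can differ from the ratio of FPKM. Near-identical copies were searched with blastn 2.17.0 in GENCODE M21 transcripts (at least 95% identity over 200 bases or more). Of the 58 genes 16 had at least 1 copy, and not all of the 16 are named above for it. FPKM splits reads among such copies, and unstranded overlaps cannot be separated.

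Described in full were genes with a mean FPKM of at least 1 and a ratio of at least 1.3 either way, and the 12 of highest mean FPKM. Of each other list, genes 1.5-fold apart were named, or otherwise the 2 farthest apart; Gstm1, Taldo1, Hmox1, Sepp1, Pdia3, P4hb, Chi3l3, Duox1 and Duox2 were added after their values were seen. The genes, lists and rules were chosen with earlier results of these data known. Python 3.11.15, pandas 2.3.3 and scipy 1.17.1 were used. Coordinates of genes are mm9, as deposited and counted from 1; those of printed sequences are GRCm38.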

Additional observations from a re-analysis of the deposited data

How the results depend on the processing

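The count of redox genes at least 1.5-fold higher, 2 as reported, was 1 with the median of all genes set to 0, with the length trend removed and with rows of status OK only, 7 at a fold of 5/4 and 0 at a fold of 2. The count at least 1.5-fold lower, 1 as reported, was 4 at a fold of 5/4 and 0 at a fold of 2. Letting a gene in on FPKM of 1 or more in either library gave 3 higher, as did no filter on low values and conversion to TPM, Glrx3 being the added one. Taking only the highest row of each gene also gave 3. There the added one was Nfe2l1, on its row of 4596 bases (9.07 in the library labelled Mst1/2-deleted and 4.37 in the control library). The median of the redox genes ran from -0.05, with the median of all genes set to 0, to 0.03, with a pseudocount of 0.1; it was -0.01 after conversion to TPM and -0.02 with the length trend removed. Chosen after seeing the data, the same settings gave medians of -0.26 to -0.19 for the other Nrf2 targets, and 0.15 to 0.28 for the genes of the secretory pathway. Highly covered genes moved beyond their counting intervals under the scalings, Prdx6 to 0.58 with the median set to 0. With 1 library per genotype, no difference has a replicate check. No paired analysis was possible because each group has 1 library.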
